A study of Mus musculus with 2 samples.

Results

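Mir143 and Mir145a are a pair of microRNA hairpin genes known as the smooth muscle microRNA cluster, and they were examined here in whole mouse heart. They were chosen by gene identity and not by a cutoff on a measured value, though earlier results of these data were known. They are the 2 rows of the 2202 microRNA gene rows whose Ensembl identifiers are those of Mir143 (ENSMUSG00000065445.3) and Mir145a (ENSMUSG00000065592.2) in GENCODE M21. Small RNA was sequenced from the hearts of B6CASTF1/J males, F1 hybrids of C57BL/6J and the wild-derived CAST/EiJ strain, at 2 months of age. The labels give no treatment and no other tissue, so the 2 libraries form 1 group, named replicate 1 and replicate 2 below. The donor identifier in the labels is the same for both, and only the descriptions, which number the males differently, say that 2 animals were used. Whole heart holds many cell types, and in such bulk samples fewer cells of a type and less RNA per cell cannot be told apart. Messenger RNA was not measured, so the smooth muscle label could not be checked against protein-coding markers such as smooth muscle actin.

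MicroRNAs are cut from a hairpin in a longer primary transcript, and the mature strand guides a silencing complex to complementary sites in messenger RNAs. Mir143 and Mir145a are made from a shared primary transcript, yet their mature microRNAs are not related in sequence and pair with different target sites. In adult animals the pair is known from vascular and visceral smooth muscle, where serum response factor with its coactivator myocardin drives its transcription. Mice lacking the pair have arteries with less contractile smooth muscle. In the embryo both are also expressed in the developing heart.

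Both hairpins lie on the minus strand of chromosome 18 of mm10. The Mir143 hairpin gene spans positions 61649196 to 61649258, a length of 63 bases, and Mir145a spans 61647825 to 61647894, a length of 70 bases. Mir143 comes first in the direction of transcription, and 1301 bases separate the pair. The annotations differ in whether the hairpins have a host gene. In GENCODE M21 the long noncoding RNA gene Carmn, a cardiac and smooth muscle linked transcript, spans 61649625 to 61665537 on the same strand and ends 366 bases before Mir143, so 0 of the 2 hairpins lie inside it. In RefSeq on the same assembly (GRCm38.p6), Carmn spans 61645878 to 61665538 and contains both. On the opposite strand, Bvht (Braveheart), a long noncoding RNA gene known from cardiac commitment, spans 61639542 to 61647472 and ends 352 bases from Mir145a. No gene of GENCODE M21 overlaps either hairpin on either strand (0 genes).

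**Figure D1:**
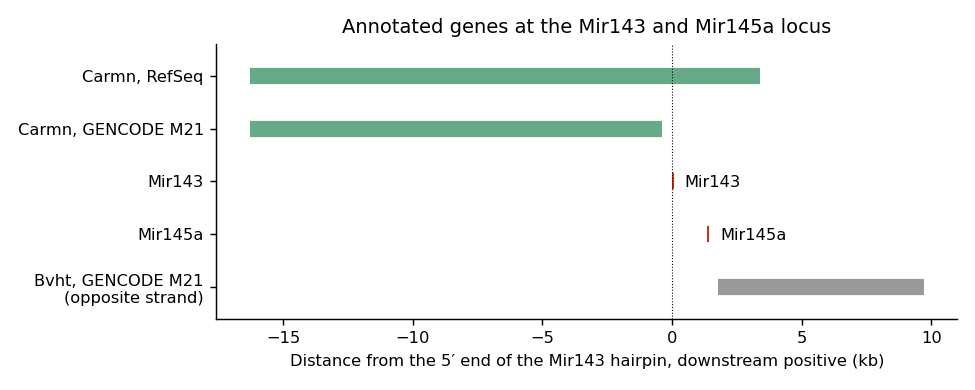
Position of Mir143, Mir145a and the neighbouring genes, as the distance in kb from the 5′ end of the Mir143 hairpin, with positive values downstream. Bars are whole gene spans. Carmn ends before Mir143 in GENCODE M21 and runs past both hairpins in RefSeq, and Bvht lies beyond Mir145a on the opposite strand.

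Each value is a count of reads on the strand of the hairpin gene, with its 2 arms counted together. Replicate 1 held 10362589 reads and replicate 2 held 10483233, of which 3650782 and 3810675 were counted in a microRNA gene (35.2% and 36.4%). Reads mapped to several places made up 48.0% and 46.4% and enter no gene. Levels are given as CPM, the count scaled to a total of 1000000 over all 2202 gene rows of a library. Ranks and ratios between genes are those of counts, and unequal recovery of mature sequences by the library preparation was not corrected.

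Mir143 was among the most counted microRNA genes and kept nearly the same level in both hearts. Its counts were 179183 in replicate 1 and 191794 in replicate 2, or 49081 and 50331 CPM. That placed it 8th of 2202 genes in replicate 1 and 9th in replicate 2. Reads mapped to several places enter neither these ranks nor the shares of microRNA counts. Of all reads, Mir143 held 1.73% in replicate 1 and 1.83% in replicate 2. It held 4.91% of the microRNA counts of replicate 1, with an exact Clopper-Pearson 95% interval of 4.89 to 4.93, and 5.03% of those of replicate 2, with an interval of 5.01 to 5.06. The SD of the 2 libraries was 884 CPM, which is 1.78% of the mean. Among the 65 genes with a mean of at least 1000 CPM, the median of this coefficient of variation was 19.1% and 5 genes had a lower one than Mir143.

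Mir145a was far below Mir143 in each heart, and its level was 1.87 times as high in replicate 1 as in replicate 2. Its counts were 20190 and 11254, or 5530 and 2953 CPM. Its rank was 27th in replicate 1 and 36th in replicate 2. It held 0.553% of the microRNA counts of replicate 1, with an interval of the same kind of 0.545 to 0.561, and 0.295% of those of replicate 2, with an interval of 0.290 to 0.301. The coefficient of variation was 43.0%, and 14 of the 65 genes with a mean of at least 1000 CPM had a higher one. These intervals cover counting error only, and they are narrow beside the difference between the libraries.

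Neither hairpin had a read on the opposite strand, with 0 counts for both genes in both libraries. The count without regard to strand was the same as the count on the gene's strand for each gene in each library. Mir145b, a separate hairpin gene on chromosome 18 from 69022199 to 69022273 that carries a related name, had 5 counts in replicate 1 and none (0) in the other library. That 0 allows a level of up to 0.787 CPM among uniquely mapped reads. Whether any reads of the pair fell among those mapped to several places was not tested.

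In the order of mean CPM, Mir143 stood between Mir23b above and Mirlet7d below, and its place relative to Mirlet7d is not set by these libraries. Mir126a, the endothelial microRNA gene that stood next above Mir23b, was at 52212 CPM in replicate 1 and 70228 in replicate 2. Mir23b, of a cluster known from endothelial and many other cells, was at 57970 and 50476 CPM. Both of these genes had their lower library above the higher library of Mir143, by a narrow margin for Mir23b. Mirlet7d of the let-7 family was at 28904 and 54650 CPM, a range that includes both values of Mir143. Mir139, next in the order, was at 41092 and 38668 CPM, below Mir143 in both libraries.

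Mir145a could not be ordered against its neighbours. Mir322 was at 4853 CPM in replicate 1 and 5127 in replicate 2, and Mir151 at 4638 and 4579. Mir100 was at 4411 and 3919 CPM, and Mir150, a microRNA gene of mature lymphocytes, at 4069 and 3420. All 8 of these values lie inside the range of Mir145a. Mir145a was thus above each of the 4 genes in replicate 1 and below each of them in replicate 2.

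**Figure D2:**
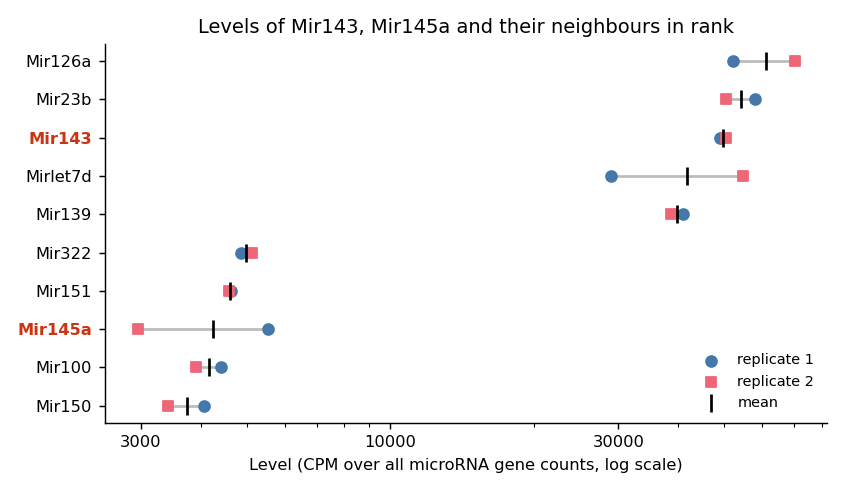
Level in CPM (log scale) of Mir143, Mir145a and the 2 genes above and below each in the order of mean level. Circles are replicate 1, squares replicate 2 and ticks the mean. The libraries nearly coincide for Mir143 (49081 and 50331 CPM) and lie apart for Mir145a (5530 and 2953 CPM).

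The ratio of the hairpins within a library needs no scaling between libraries. Mir143 had 8.87 times the counts of Mir145a in replicate 1 and 17.0 times in replicate 2. On the log2 scale, with 0.5 CPM added to each level, the ratio was 3.15 in replicate 1 and 4.09 in replicate 2, a mean of 3.62 ± 0.67 (SD, n = 2). Of the pair's counts, Mir145a made up 10.1% in replicate 1, with an exact Clopper-Pearson 95% interval of 9.99 to 10.3, and 5.54% in replicate 2, with an interval of 5.44 to 5.64. With 2 libraries a two-sided exact sign-flip permutation test of the ratio cannot give a p below 0.5, so the excess of Mir143 was not tested that way. It was present in 2 of 2 libraries.

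The ratio of Mir143 to Mir145a was 1.92 times higher in replicate 2 than in replicate 1 (95% interval of the odds ratio 1.87 to 1.97). Fisher's exact test of the 4 counts, two-sided, gave a −log10 p of 647. At the ratio of replicate 1, the Mir143 counts of replicate 2 would have gone with 21611 counts of Mir145a, against the 11254 counted. The test sets the difference against counting noise and compares these 2 libraries, not conditions. With 1 library per animal, differences between animals and between library preparations cannot be told apart.

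Between the libraries, Mir145a was lower in replicate 2, at 0.534 times its CPM in replicate 1, and Mir143 was at 1.03 times. Each gene was tested by an exact two-sided binomial test of its 2 counts against the ratio of TMM library sizes (edgeR's scaling by a trimmed mean of log ratios), with Benjamini-Hochberg adjustment over the 320 genes that passed a low-count filter. Mir145a had a log2 ratio, replicate 2 over replicate 1, of -0.92 (counting interval -0.95 to -0.88), and the −log10 of its adjusted p in the exact binomial test was 665. Mir143 had a log2 ratio of 0.02 (counting interval 0.01 to 0.03, exact binomial test, Benjamini-Hochberg adjusted p = 2.69e-06). That shift is smaller than the changes brought by the scaling. It was 0.10 with no low-count filter, 0.00 with DESeq2 size factors (adjusted p = 0.588 by the same exact binomial test), and -0.01 with library totals that leave out the most abundant gene (adjusted p = 0.00309, the opposite direction), so no direction is given for Mir143. For Mir145a the log2 ratio stayed between -0.96 and -0.84 under the 6 other scalings, filters and columns tried.

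A call between these libraries is common and does not set the pair apart. By the same exact test 206 of the 320 genes (64.4%) differed at an adjusted p under 0.05, with 30.6% higher and 33.8% lower in replicate 2. At a mean of at least 1000 CPM, where both members lie, 61 of 65 genes (93.8%) were called, 41.5% higher and 52.3% lower. Both members were called, a share near that background. The size of the difference separates them. The median absolute log2 ratio was 0.42 over the 320 genes and 0.40 over the 65. An absolute log2 ratio no larger than that of Mir143 was seen in 3 of the 65 genes, Mir143 included. A drop at least as large as that of Mir145a was seen in 6 of the 65 genes and in 32 of the 320, Mir145a included.

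**Figure D3:**
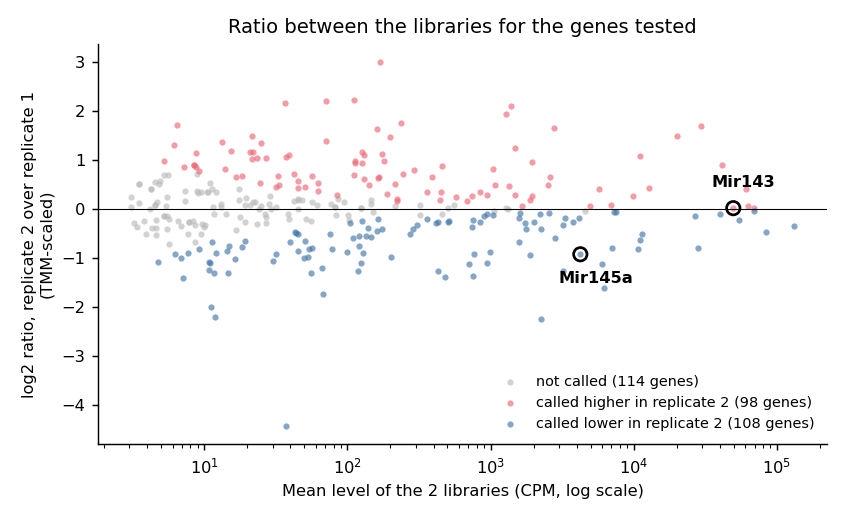
TMM-scaled log2 ratio of replicate 2 over replicate 1 against mean CPM (log scale) for the 320 genes tested. Colours mark genes called higher (98), called lower (108) or not called (114) in replicate 2, and rings mark Mir143 at 0.02 and Mir145a at -0.92.

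Genes with a ratio between the libraries closest to that of each member came from other loci. Likeness here is the distance between log2 ratios over 2 libraries, among genes with a mean of at least 1000 CPM. Nearest to Mir143 were Mirlet7b at a log2 ratio of 0.02, Mir30c-2 at 0.03 and Mir185 at 0.00. Nearest to Mir145a was Mir17, a hairpin of the miR-17-92 cluster linked to proliferation, at 2475 and 1300 CPM and a log2 ratio of -0.94. Mir30d followed at -0.82 and Mir99b at -0.79. A profile of 2 values is a weak measure of likeness, since any 2 genes that shift equally look alike.

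In these counts, an unequal and shifting ratio was usual for microRNA genes that lie close together. Pairs were formed from microRNA genes that follow each other on a strand within 10000 bases, each with a mean of at least 100 CPM, which gave 26 pairs with Mir143 and Mir145a among them. By summed level Mir143 and Mir145a were the 4th of these pairs. The median log2 ratio of the higher over the lower gene was 3.30, and the Mir143 to Mir145a ratio of 3.62 ranked 11th. Several of the other pairs hold a hairpin with copies of its mature sequence at other loci. Reads that fit several places are missing from such counts, so the median and the rank are uncertain. The log2 ratio changed between the libraries by a median of 0.78 in absolute terms, from 0.08 to 2.64. Mir143 over Mir145a changed by 0.94, the 9th largest. By Fisher's exact test with Benjamini-Hochberg adjustment over the pairs, the ratio differed between the libraries for 23 of 26 pairs (88.5%), so the call for Mir143 and Mir145a is shared with most pairs.

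Other abundant pairs moved in both directions. Mirlet7b over Mirlet7c-2, the pair with the highest summed level, had log2 ratios of 5.17 in replicate 1 and 5.48 in replicate 2. Mir23a over Mir27a went from 5.55 to 4.65, and Mir23b over Mir27b, the paralogous cluster, from 3.57 to 2.94. In those last 2 clusters the less counted hairpin took a larger share of the pair in replicate 2, whereas Mir145a took a smaller one. Mirlet7d over Mirlet7f-1 went from 6.46 to 7.76. The largest changes were those of Mir15a over Mir16-1, from 0.33 to 2.97, Mir93 over Mir106b, from 3.47 to 1.54, and Mir195a over Mir497, from 1.09 to -0.38. Mirlet7c-2, Mirlet7f-1 and Mir16-1 have copies of their mature sequence at other loci, and reads that fit several places are missing from their counts, so these ratios are uncertain. The order of the genes was the same in both libraries in 23 of the 26 pairs, and Mir143 over Mir145a was among them.

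**Figure D4:**
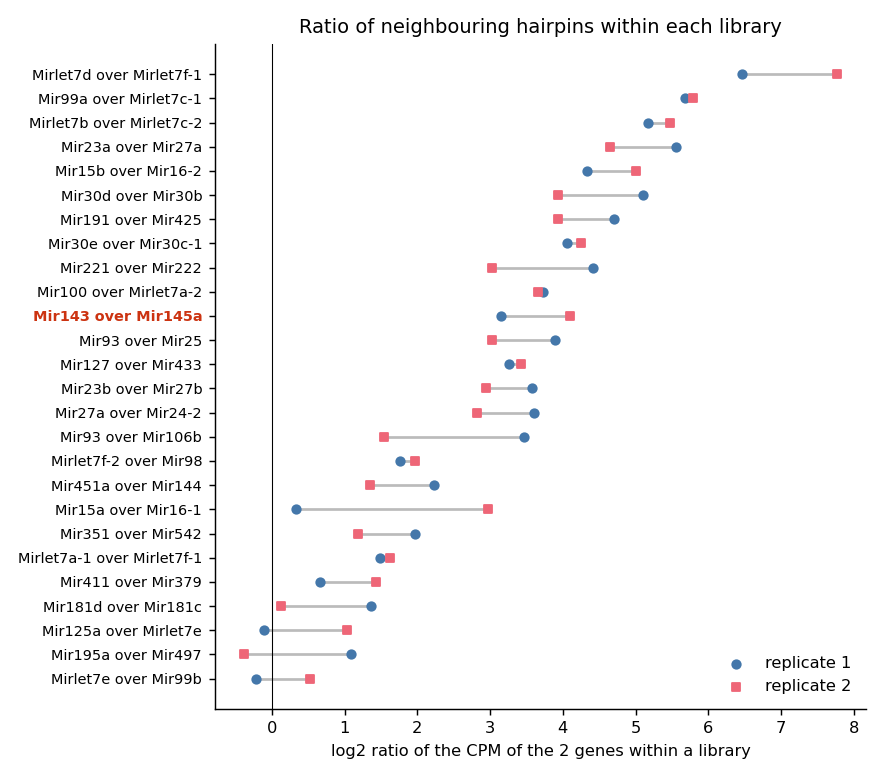
log2 ratio of the CPM of the higher over the lower gene within each library for the 26 pairs of adjacent microRNA genes, sorted by the mean ratio. Circles are replicate 1 and squares replicate 2, joined by a line. Mir143 over Mir145a moves from 3.15 to 4.09, the 9th largest change, and other pairs move in either direction.

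Other microRNA genes linked to smooth muscle were called in both directions between the hearts. Of 12 genes linked to the contractile state of smooth muscle, 11 had a row and 9 passed the low-count filter. By the exact binomial test 3 were higher and 4 lower in replicate 2, with a median log2 ratio of 0.06 against 0.02 over all genes tested (30.6% of all genes were called higher and 33.8% lower). Mir322, the most counted of them, had a log2 ratio of 0.07, and Mir100 of the miR-99 family had -0.18. With no low-count filter the counts were 5 higher and 2 lower of 11, against 118 higher and 95 lower of all 722 genes tested that way. The list's Mir1a-1 and Mir133a-2 had 20 counts or fewer in each library and were not tested, and Mir663 is not analysed here. Mir1a and Mir133a have copies of their mature sequences at a second locus, so that reads fitting both are missing and their levels are uncertain. Whole heart holds many cell types, so counts of the listed genes, Mir1a and Mir133a among them, need not come from smooth muscle.

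Of 13 genes linked to proliferating or synthetic smooth muscle, 11 passed the filter. Such a link does not say that a gene promotes this state, and it was not checked here. By the exact binomial test 4 of them were higher and 6 lower in replicate 2, where 30.6% of all genes tested were higher and 33.8% lower. Their median log2 ratio was -0.18, and it was 0.13 with no low-count filter, the opposite sign. Mir21a, a microRNA gene raised in injured vessels and in fibrosis, was at 4504 CPM, then 1908 CPM in replicate 2, with a log2 ratio of -1.25. Mir34a, a target of p53, was at 2017 and 3224 CPM, a log2 ratio of 0.66. Mir365-1 and Mir365-2 had 5 counts or fewer in each library and were not tested. Mir24, Mir26a and Mir365 have copies of their mature sequences at another locus, so reads fitting both are missing and their levels are uncertain. Among them, Mir24-2 was called higher, and Mir26a-1 (261 and 11 counts) and Mir26a-2 were called lower. The numbers of calls and the median of this list are uncertain for that reason.

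Genes that mark other cell types of the heart shifted as well, and their part in the difference of Mir145a was not tested. The endothelial list has 2 genes: Mir126a rose by a log2 ratio of 0.41 in replicate 2, while Mir126b had 0 and 4 counts and was not tested. In the column without strand, where reads in the overlap of Mir126a with the opposite-strand Mir126b enter neither gene, Mir126a kept 15 and 29 counts, with a log2 ratio of 0.85 that was not called. The summed level of the endothelial list on the gene's strand was 52212 CPM in replicate 1 and 70229 in replicate 2. Of the cardiac muscle genes, which lie in introns of myosin heavy chain genes, Mir208a had a log2 ratio of 1.67 and Mir208b of 2.22. Both were called higher, where 30.6% of all genes tested were, and 41.5% of those with a mean of at least 1000 CPM, as Mir208a has. Mir499 had -0.07 and was called lower, and its sign turned with no low-count filter (0.01). The summed level of these 3 genes was 3954 CPM in replicate 1 and 6890 in replicate 2. All 4 tested genes of the leukocyte list of 5 were called lower, where 33.8% of all genes tested were. At a mean of at least 1000 CPM, where Mir150 and Mir155 lie, 52.3% of the genes were called lower. The log2 ratios of the leukocyte genes were -1.36 for Mir142, -0.50 for Mir223, -0.26 for Mir150 and -0.18 for Mir155. Mir142b was at 0 in both libraries. Together the leukocyte genes were at 8970 and 7190 CPM. In the column without strand Mir142 had 0 counts in both libraries. The 3 leukocyte genes tested there were called lower, against 90 lower of all 297 genes.

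For the lists that follow, the shares over all genes tested were 30.6% called higher and 33.8% lower. At a mean of at least 1000 CPM, where Mir451a, Mir486 and Mir214 lie, they were 41.5% and 52.3%. The erythroid list of 4 genes had 2 called higher and 2 lower, among them Mir451a at -0.67 and Mir486 at 0.50. Its summed level was 3279 CPM in replicate 1 and 2992 in replicate 2. The fibroblast list of 4 genes had 2 past the filter. Mir214 was called higher at 2.11, and Mir199b had 0.19 and was not called. Mir199a-2, with 19 and 6 counts, and Mir199a-1, with 0 and 1, were not tested. With no low-count filter 1 of the 4 was called higher and 1 lower, against 118 higher and 95 lower of all 722 genes. The median log2 ratio of the list was then 0.44 instead of 1.15. The summed level of the fibroblast list was 541 and 2290 CPM, of which Mir214 alone made up 519 and 2269 CPM. Mir199a-1, Mir199a-2 and Mir199b share mature sequence, and reads that fit several places are missing from their counts. Their levels, and with them the summed level and the part of Mir214 in it, are uncertain. Of the skeletal muscle genes, Mir206 was called higher at 3.00, and Mir133b had -0.20 and was not called, with a summed level of 43.0 and 308 CPM.

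**Figure D5:**
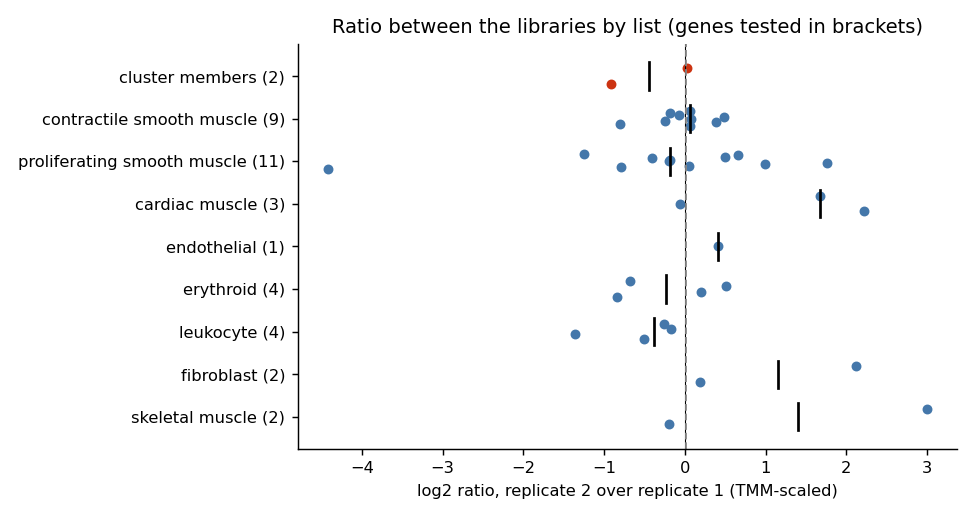
TMM-scaled log2 ratio of replicate 2 over replicate 1 for the genes tested in each list, with the number of genes in brackets. Points are genes, black ticks are list medians and the dashed line is the median of all genes tested (0.02). The points of both smooth muscle linked lists lie on both sides of 0.

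Both members were also set against leading genes of other cell types within each library, with no test. The log2 ratio of Mir143 over the heart muscle gene Mir499 was 4.24 in replicate 1 and 4.33 in replicate 2, and that over Mir126a was -0.09 and -0.48. Over Mir208a it was 5.21 and 3.56. Mir145a over Mir499 was 1.09 and 0.24. Over Mir208a it was 2.06 and -0.53, so that the order of Mir145a and Mir208a turned between the hearts. The summed level of the cluster, of which Mir143 made up 89.9% in replicate 1 and 94.5% in replicate 2, was 54611 and 53284 CPM. It held 4.75% and 4.76% of all uniquely mapped reads.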

How the data were processed

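The deposited values are raw read counts per microRNA gene, 1 file without header per library, made on the mm10 assembly with the GENCODE M21 annotation, per the text the authors deposited beside them. The aligner is not given in the sources used here. In each file, 4 rows name no gene and entered neither library sizes nor tests (64.8% of reads in replicate 1 and 63.6% in replicate 2). The other 2202 rows are genes, and all matched GENCODE M21. The column of reads on the gene's strand was used.

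CPM, shares and ratios were computed here from the counts. TMM sizes and the low-count filter (filterByExpr) came from edgeR 4.0.16, and DESeq2 1.42.0 size factors served as an alternative (R 4.3.3). The exact binomial test (Python 3.11.15, scipy 1.17.1) was tried on simulated counts with counting noise only and plain library totals. Fisher's test was not simulated and was only compared with the scipy version on an example table. The threshold was an adjusted p of 0.05. With 1 group of 2 libraries there is no edgeR contrast, and p-values measure counting noise between these libraries. The common biological coefficient of variation in edgeR was 0.370. A count of 0 was read as up to 3 counts.

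The members, lists and tests were chosen with earlier results of these data known. Genes named were both members, Mir145b, the 2 genes above and below each member by mean CPM, the 3 nearest to each in log2 ratio at a mean of at least 1000 CPM, all endothelial and cardiac muscle list genes, the 2 most abundant of each other list, the 5 most abundant adjacent pairs and the 3 pairs with the largest change. List genes that were not tested are named beside them, as are Mir142, Mir223 and the Mir24 and Mir26a genes. These fall outside this rule and were chosen after their values were seen. Alternatives were other strand columns, denominators, scalings, filters, a pseudocount of 1 CPM, other pair limits and each replicate left out.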

Additional observations from a re-analysis of the deposited data

How the results depend on the processing

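The Mir143 level of 49706 CPM was 64450 CPM in the column without strand, 43843 CPM over all uniquely mapped reads and 57312 CPM with the most abundant gene left out of the total. The summed share of the pair, 5.39%, was 6.997%, 4.76% and 6.22% under those 3 settings. These changes follow from the denominator, since the pair's counts were the same. The Mir143 difference between libraries, a log2 ratio of 0.02, was 0.0032 and not called with DESeq2 size factors (adjusted p = 0.588, exact binomial test) and -0.0149 with totals that leave out the most abundant gene. Genes with a lower coefficient of variation than Mir143 numbered 5 of 65 at 1000 CPM or more and 6 of 146 at 100 CPM or more. Without either replicate the level ranged from 49081 to 50331 CPM for Mir143 and from 2953 to 5530 CPM for Mir145a, the summed share from 5.33% to 5.46% and the log2 ratio of the pair from 3.15 to 4.09. The drop of Mir145a, the change of the ratio and the rank of the pair's change (9th of 26, 8th of 22, 18th of 53 and 6th of 18) kept their direction and side of the threshold, where they have one, under each alternative tried. The calls between libraries numbered 176 to 213, against 206, and with no low-count filter 55.4% of them were higher in replicate 2, against 47.6%. No paired analysis was possible because the series holds 1 group. With 20190 and 11254 counts for the less counted member, counting error is small beside the difference between the libraries.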
